A study of Mus musculus with 6 samples.

Results

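The genes described here are 9 that encode titin and its partners at the Z-disc, the M-band and the thick filament: Ttn, Nebl, Myom1, Myom2, Csrp3, Tcap, Ldb3, Actn2 and Mybpc3. They were taken from 18193 mouse genes that have a probe set of their own on the array, and each was followed through every probe set annotated to it alone, 21 in all. Of these 21 probe sets, 16 were bright enough to be tested, and they cover 8 of the 9 genes. The members were chosen by gene function, but with earlier results of the same arrays known. Titin had been selected on its log2 levels, for a small p between the 2 kinds of heart called eM and eI below, so the members' values between those hearts are given as a description.

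RNA of 6 hearts from C57B6 mice was hybridised to Affymetrix Mouse430_2 arrays, 1 array per heart, in a study of EphB4 and the forming ventricular wall. There were 3 hearts labelled EphB4 mutant and 3 labelled wild type. Mutant heart 3 and wild-type heart 3 carry the letters eM at the start of their descriptions, while mutant hearts 1 and 2 and wild-type hearts 1 and 2 carry eI. The sources used here do not state the kind of EphB4 mutation, the age and sex of the mice or the meaning of the letters. Nothing in the labels beyond the count of 6 mice says how the hearts were collected, so p-values measure the spread between these arrays.

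Titin is the giant protein that spans the sarcomere, the contractile unit of striated muscle, from the Z-disc to the M-band, and acts as its molecular spring. At the Z-disc, alpha-actinin (Actn2) crosslinks the thin filaments of neighbouring sarcomeres. Telethonin (Tcap) caps the end of titin there, muscle LIM protein (Csrp3) binds telethonin, the PDZ-LIM protein Cypher (Ldb3) binds alpha-actinin, and nebulette (Nebl) runs along the thin filament. At the M-band, myomesin 1 and 2 (Myom1, Myom2) crosslink titin with the thick filament, and cardiac myosin-binding protein C (Mybpc3) decorates the thick filament. In people, mutations of TTN and MYBPC3 are known causes of inherited cardiomyopathy.

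Promoter windows are shown for the members with a single listed start, since titin and 3 members that stayed near their eI level can be set beside each other there. Each window runs from 250 bases before to 50 bases after the transcript start, 5′ to 3′ on the gene's strand, from RefSeq on GRCm38.p6. Capitals mark matches on either strand to the MEF2 motif, the CArG box of serum response factor, the GATA motif AGATAA and the MCAT motif CATTCC of TEAD factors.
Ttn, chr2:76982498-76982797, - strand: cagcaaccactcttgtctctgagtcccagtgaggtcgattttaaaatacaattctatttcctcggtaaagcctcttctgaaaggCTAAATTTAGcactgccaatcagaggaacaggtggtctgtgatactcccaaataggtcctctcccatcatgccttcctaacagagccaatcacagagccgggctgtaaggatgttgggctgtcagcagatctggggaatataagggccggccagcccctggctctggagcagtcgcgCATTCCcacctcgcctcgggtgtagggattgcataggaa
Mybpc3, chr2:91117894-91118193, + strand: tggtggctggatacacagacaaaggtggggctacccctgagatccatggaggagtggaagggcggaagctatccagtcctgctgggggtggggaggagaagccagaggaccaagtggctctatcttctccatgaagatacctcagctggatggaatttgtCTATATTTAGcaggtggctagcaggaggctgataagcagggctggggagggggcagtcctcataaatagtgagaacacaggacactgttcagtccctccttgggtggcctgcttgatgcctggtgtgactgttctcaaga
Myom1, chr17:71019307-71019606, + strand: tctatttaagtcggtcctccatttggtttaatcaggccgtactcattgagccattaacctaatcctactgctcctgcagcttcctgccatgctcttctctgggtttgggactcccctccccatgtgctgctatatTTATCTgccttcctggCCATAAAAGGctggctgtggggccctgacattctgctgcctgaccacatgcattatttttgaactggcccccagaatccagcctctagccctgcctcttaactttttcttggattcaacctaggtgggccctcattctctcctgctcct
Actn2, chr13:12340683-12340982, - strand: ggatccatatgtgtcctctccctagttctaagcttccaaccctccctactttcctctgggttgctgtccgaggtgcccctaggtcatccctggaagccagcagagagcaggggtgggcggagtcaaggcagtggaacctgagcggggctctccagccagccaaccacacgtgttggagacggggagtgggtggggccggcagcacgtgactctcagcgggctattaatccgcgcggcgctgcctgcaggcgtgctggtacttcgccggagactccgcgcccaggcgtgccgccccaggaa
The Ttn window held a MEF2 match starting at -166 from the transcript start and an MCAT match 11 bases after it. The Mybpc3 window held a MEF2 match at -90, and the Myom1 window a GATA match at -115 and a CArG match at -99. The Actn2 window held none of these 4 motifs. Over 12 windows of 7 members, 2 held MEF2, 4 held CArG (2 of them overlapping windows of Ldb3), 3 held GATA and 2 held MCAT. Of 32851 windows in the whole table, 3.19% held MEF2, 1.63% CArG, 11.2% GATA and 14.7% MCAT. The E-box CANNTG, not in capitals, was in 9 of the 12 and in 72.3% of all windows. TATAAA was in 0 of the 12 and in 13.6% of all.

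The arrays carried the signal of heart muscle. All 7 cardiomyocyte markers fixed for this check were above the brightness filter, with means from 10.65 (Nkx2-5) to 14.58 (Actc1) on the log2 scale. Ephb4 itself read 8.04 ± 0.11 in mutant and 8.03 ± 0.18 in wild-type hearts (SD, n = 3 each). Several measures moved with the letters. For beta-actin, the 3-prime control probe set exceeded the 5-prime one by 0.51 to 0.77 in eM and by 0.28 to 0.41 in eI hearts, and an 18S rRNA control read 10.48 to 11.17 in eM and 9.80 to 10.16 in eI hearts. Female-specific Xist was low in mutants 1 and 3 (6.73 and 6.78) and read 11.51 to 12.33 in the other hearts, so sex moved in part with genotype. What part RNA quality and sex had in the values below was not tested.

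Titin was the member whose tested probe sets differed most between eM and eI hearts. At 5 of its 6 probe sets both eM hearts lay above all 4 eI hearts, by 2.67 to 8.56-fold between group means. The brightest probe set, 1427445_a_at, read 13.44 in mutant 3 and 13.41 in wild-type 3, against 11.88 and 11.67 in eI mutants and 11.68 and 11.90 in eI wild-type hearts. Probe set 1427446_s_at, annotated to the same source sequence, read 13.39 and 13.30, against 11.58 and 11.47 in eI mutants and 11.59 and 11.57 in eI wild-type hearts. These 2 probe sets gave nearly the same picture, with mean differences of 1.64 and 1.79 log2 and no overlap.

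The dimmer titin probe sets separated the hearts in the same direction but by unequal amounts. Probe set 1444083_at read 9.38 in mutant 3 and 9.31 in wild-type 3, against 5.98 and 5.72 in eI mutants and 6.52 and 6.76 in eI wild-type hearts. Its difference of 3.10 log2 was the largest of any member. It ranked 3 from the top among 27022 tested probe sets, where the other 4 tested titin probe sets ranked 86 to 207. Titin was selected for a small p between these hearts, so high ranks were to be met and are given as a description. Probe set 1431928_at read 8.29 and 8.03 in the eM hearts, against 6.53 to 6.84 in eI hearts, a difference of 1.42. Probe set 1444638_at read 7.02 and 6.89, against 4.84 to 5.55 in eI hearts, a difference of 1.69. It passed the filter at 5.38, with a mean of 5.83, only through the eM hearts, since its eI mean was 5.27, so the size of its difference rests on an eI level that nothing here sets apart from background. The sixth, 1446450_at, lay under that filter and was flat, at 4.20 and 4.13 in the eM hearts, against 3.85 to 4.28 in eI hearts. Within a heart, 1444083_at therefore gained 1.46 log2 on the brightest probe set between eI and eM hearts. Probe sets of a gene share the same RNA extract, so they are no replicates of a heart.

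**Figure D1:**
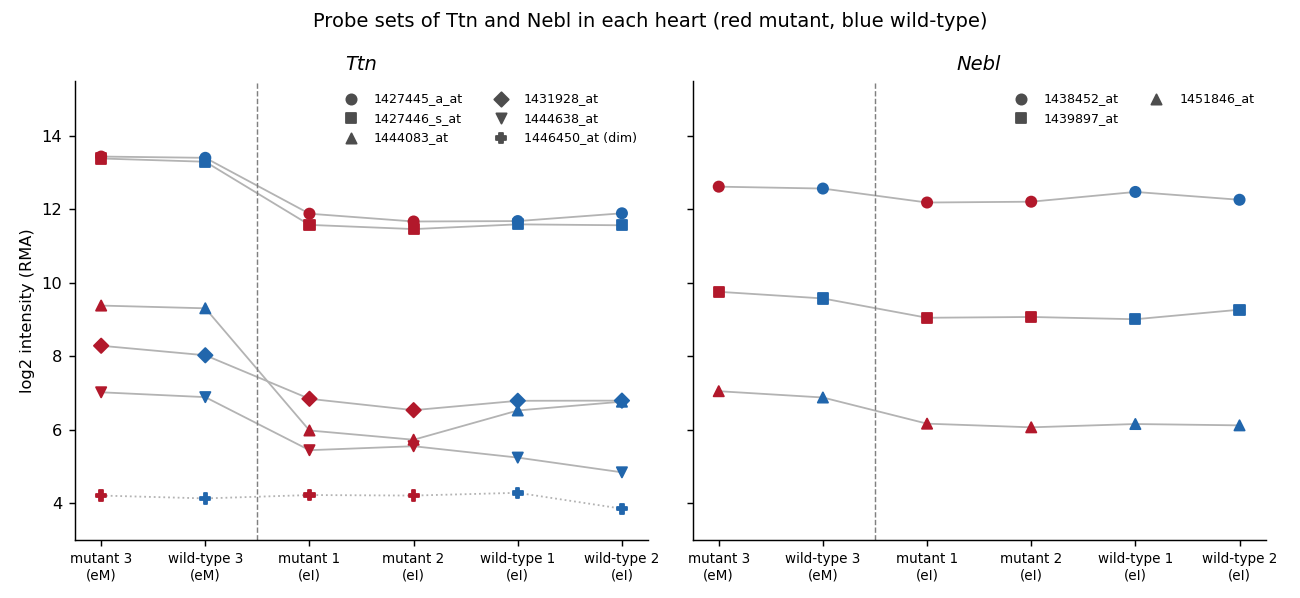
Log2 intensity of the 6 probe sets of Ttn (left) and the 3 of Nebl (right) in each heart, red for mutant and blue for wild-type, with eM hearts left of the dashed line and eI hearts right of it. Of the titin lines, 5 drop between eM and eI hearts, the dotted line of 1446450_at stays near 4, and the Nebl lines drop by less.

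Nebulette followed titin in direction at all 3 of its probe sets, with smaller differences. Probe set 1438452_at read 12.62 in mutant 3 and 12.57 in wild-type 3, against 12.19 and 12.21 in eI mutants and 12.48 and 12.26 in eI wild-type hearts. Probe set 1439897_at read 9.76 and 9.58 in the eM hearts, against 9.01 to 9.27 in eI hearts. Probe set 1451846_at read 7.05 and 6.88, against 6.06 to 6.16 in eI hearts. No Nebl probe set overlapped between the letters, and the differences were 0.31, 0.57 and 0.84 log2, larger the dimmer the probe set. The largest was 1.79-fold.

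Tcap, Csrp3, Actn2 and Ldb3 of the Z-disc had mean levels no higher in eM than in eI hearts. Tcap, whose product caps titin, read 10.09 in mutant 3 and 10.57 in wild-type 3, against 10.79 and 10.75 in eI mutants and 10.67 and 10.74 in eI wild-type hearts. Both eM hearts were thus below all eI hearts, by 0.41 log2 on average, and mutant 3 lay farthest down. Csrp3 read 13.34 and 13.54 in the eM hearts, against 13.42 and 13.45 in eI mutants and 13.55 and 13.57 in eI wild-type hearts. Its levels overlapped between the letters, with a mean difference of -0.06. Actn2 read 12.73 and 12.93 in the eM hearts, against 12.88 and 12.90 in eI mutants and 12.75 and 13.02 in eI wild-type hearts. This too was an overlap, with -0.06 between the means.

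Ldb3 gave a separation at 1 of 3 probe sets. Probe set 1416752_at read 9.65 and 9.81 in the eM hearts, against 9.93 and 9.96 in eI mutants and 10.04 and 10.06 in eI wild-type hearts, all eM values being the lower ones (-0.27). The brighter 1433783_at read 11.83 and 11.99 in the eM hearts, against 11.93 to 12.17 in eI hearts, and 1451999_at read 8.16 and 8.54, against 8.21 to 8.60. Both overlapped, with differences of -0.13 and -0.02.

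At the M-band and the thick filament, levels were close between the letters. Myom1 read 11.89 in mutant 3 and 11.98 in wild-type 3, against 11.75 and 11.80 in eI mutants and 11.94 and 11.83 in eI wild-type hearts. Mybpc3 read 13.43 and 13.36 in the eM hearts, against 13.17 and 13.21 in eI mutants and 13.37 and 13.25 in eI wild-type hearts. Both overlapped, with mean differences of 0.11 and 0.14. Myom2 was dim at all 4 of its probe sets, with means from 3.29 to 4.84, all under the filter, so nothing was tested for it. Its brightest, 1450917_at, read 4.72 and 4.92 in the eM hearts, against 4.63 to 5.15 in eI hearts. Probe set 1457435_x_at read 4.45 and 4.32, against 4.45 to 5.18 in eI hearts, and 1438175_x_at read 3.85 and 4.06, against 3.92 to 4.79 in eI hearts. These overlapped, while the dimmest, 1438372_at, read 3.13 and 3.24, against 3.29 to 3.42 in eI hearts, without overlap at a level that nothing here sets apart from background.

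**Figure D2:**
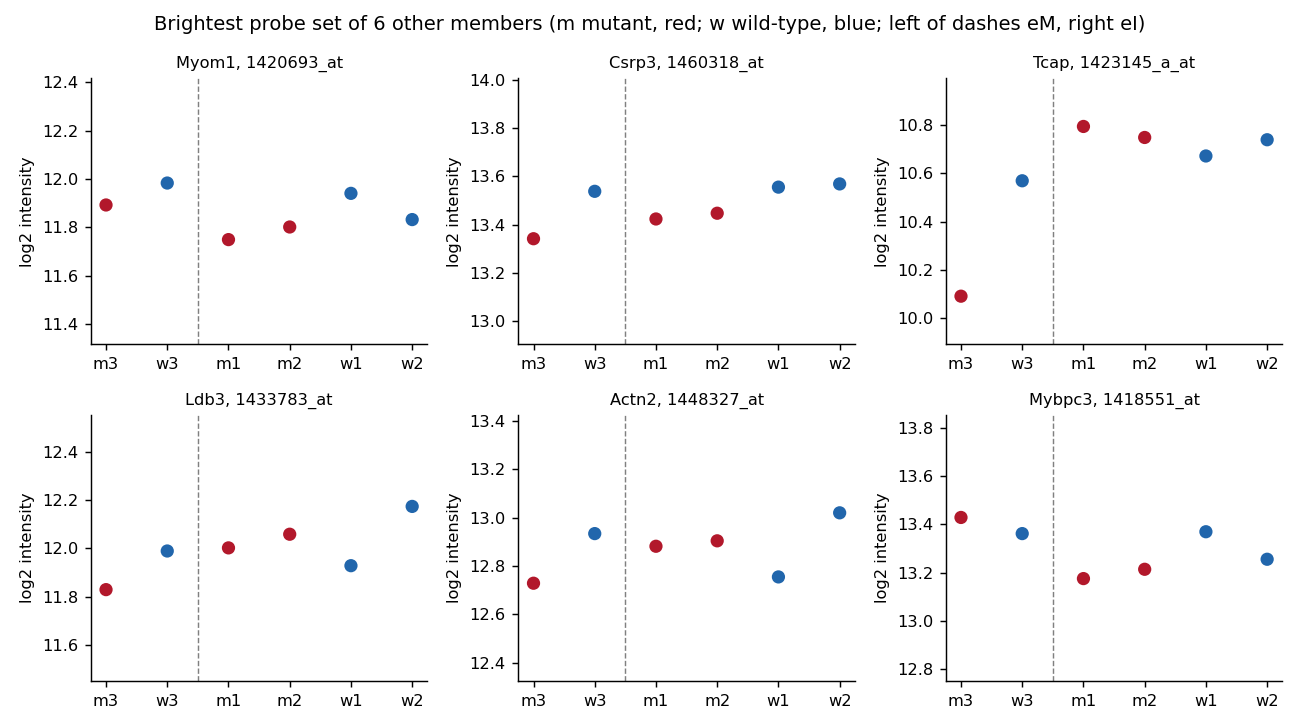
Log2 intensity of the brightest probe set of Myom1, Csrp3, Tcap, Ldb3, Actn2 and Mybpc3 in each heart, red for mutant and blue for wild-type, with eM hearts left of the dashed line, and every panel spanning the same height of 1.1 log2 units. Tcap in mutant 3, at 10.09, is the point farthest from the rest of its panel.

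Over the 16 tested probe sets, 10 were higher and 6 lower in eM hearts. Their median was 0.23 log2, beside -0.01 over all 27022 tested. Titin, chosen with this contrast known, supplies 5 of the 16, so these figures are a description. Without Ttn, the 11 tested probe sets ranged from -0.41 to 0.84, and 6 of them were below 0. In 8 of the 16 the eM hearts lay above and in 2 below all eI hearts. Over all tested probe sets, 22.8% lay above and 20.3% below in this way, 43.1% together. The 8 include the 5 of Ttn, of which 1444638_at was tested only because of its level in eM hearts. A limma fit of eM against eI with genotype as a covariate called 7 of the 16 higher, the 5 of Ttn and 2 of Nebl, and 0 lower at an adjusted p under 0.05. The 7 again include 1444638_at, tested only because of its level in eM hearts. The fit called 11.7% of all probe sets, 6.75% higher and 4.94% lower. Since this contrast was used in choosing titin, the count is a description. It was 0 without mutant 3, where 1 of all 27022 probe sets was called. The titin differences in that fit, which has a single eM heart, were 1.24 to 2.66 log2 over the 5 probe sets.

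The difference was present in each genotype. Mutant 3 exceeded the mean of mutants 1 and 2 by 1.66, 1.87, 3.53, 1.60 and 1.52 log2 at the 5 titin probe sets in order of brightness. Wild-type 3 exceeded the mean of wild-type 1 and 2 by 1.62, 1.72, 2.66, 1.24 and 1.85. For Nebl, in the same order, the gains were 0.42, 0.70 and 0.93 in mutant hearts and 0.20, 0.44 and 0.74 in wild-type hearts. The Tcap difference was -0.68 in mutant and -0.14 in wild-type hearts.

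**Figure D3:**
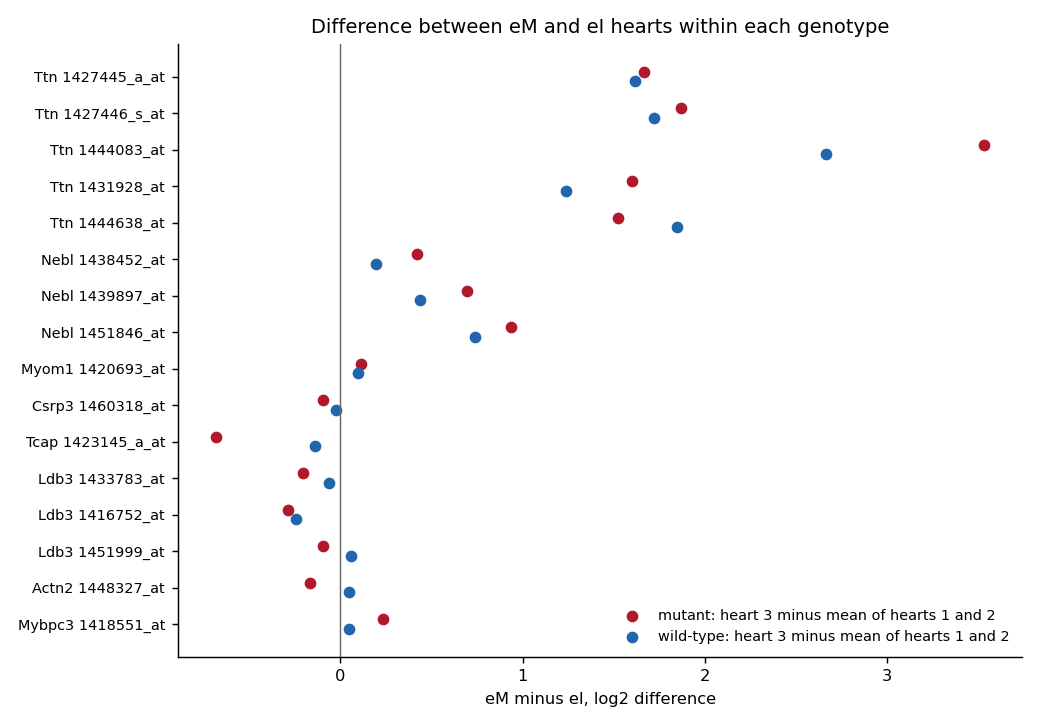
Log2 difference of the eM heart from the mean of the eI hearts of the same genotype for the 16 tested probe sets, red for mutant and blue for wild-type. Both points of each of the 5 titin probe sets lie above 1.2, those of Nebl between 0.20 and 0.93, and Tcap in mutant hearts lies lowest at -0.68.

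Between mutant and wild-type hearts the members were close. In limma, 0 of the 16 tested probe sets passed (every adjusted p = 0.9999), as did 0% of all 27022, of which 316 had an unadjusted p under 0.05. The median difference was -0.07 log2 over the members and 0.01 over all probe sets, and 11 of 16 were below 0, against 45.9% of all. At its brightest probe set Ttn averaged 12.33 ± 0.97 in mutant and 12.33 ± 0.94 in wild-type hearts (SD, n = 3 each). That difference of 0.004 log2 had a 95% interval of -1.46 to 1.47, since the eM and eI hearts stand so far apart. With the letters as a block the interval was -0.25 to 0.26.

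Csrp3 and Ldb3, a pair of Z-disc LIM proteins, each had a tested probe set without overlap between genotypes, and neither passed the test. Csrp3 read 13.42, 13.45 and 13.34 in mutant hearts 1 to 3, against 13.55, 13.57 and 13.54 in wild-type hearts 1 to 3. Every mutant heart was below every wild-type heart, by -0.15 log2 between means (95% interval -0.36 to 0.06, limma adjusted p = 0.9999). Ldb3 probe set 1451999_at read 8.21, 8.31 and 8.16 in mutant hearts, against 8.36, 8.60 and 8.54 in wild-type hearts, a difference of -0.27 (95% interval -0.53 to -0.02, limma adjusted p = 0.9999). Here too all mutant hearts were the lower ones, but the other Ldb3 probe sets overlapped, at -0.07 and -0.12. Of all tested probe sets, 4.67% had genotypes that did not overlap.

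The other members with a tested probe set overlapped between genotypes. Under the filter, the Myom2 probe set 1450917_at averaged 4.72 ± 0.09 in mutant and 4.97 ± 0.17 in wild-type hearts (SD, n = 3 each), which did not overlap (-0.25) and was not tested. Nebl differed by -0.10, 0.01 and 0.04 at its 3 probe sets, Myom1 by -0.10, Tcap by -0.12, Actn2 by -0.06 and Mybpc3 by -0.06. Myom1 averaged 11.81 ± 0.07 in mutant and 11.92 ± 0.08 in wild-type hearts, and Tcap 10.55 ± 0.39 in mutant and 10.66 ± 0.09 in wild-type hearts (SD, n = 3 each), the wide spread of Tcap in mutants being that of mutant 3. Actn2 averaged 12.84 ± 0.10 in mutant and 12.90 ± 0.13 in wild-type hearts, and Mybpc3 13.27 ± 0.14 in mutant and 13.33 ± 0.06 in wild-type hearts (SD, n = 3 each). The 95% intervals of the differences were -0.34 to 0.13 for Myom1, -0.59 to 0.36 for Tcap and -0.33 to 0.20 for Actn2. Without Ttn, the 11 tested probe sets ranged from -0.27 to 0.04, and 9 of them were below 0. In 7 of all 16, both eI mutants lay below both eI wild-type hearts, which was so for 17% of all tested probe sets. At Ttn 1444638_at and Tcap both lay above, the former at an eI level that nothing here sets apart from background. The share of all probe sets for that direction was not counted, so the 2 directions cannot be set against each other. Several of the 16 belong to the same gene and share its RNA extract. Titin's probe sets differed by unequal amounts between genotypes, and none passed. The difference was -0.50 at 1444083_at, with a 95% interval of -3.27 to 2.26, or -0.98 to -0.02 with the letters as a block. At the dim 1444638_at it was 0.35, with 0.01 to 0.68 with the letters as a block and -0.0014 to 0.70 with the replicate number as a block. The limma adjusted p was 0.9981 for both with the letters as a block, and the other 3 tested lay between -0.01 and 0.02. These 2 probe sets differed between genotypes chiefly in eI hearts (-0.79 and 0.46), and by 0.07 and 0.13 between the eM hearts.

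**Figure D4:**
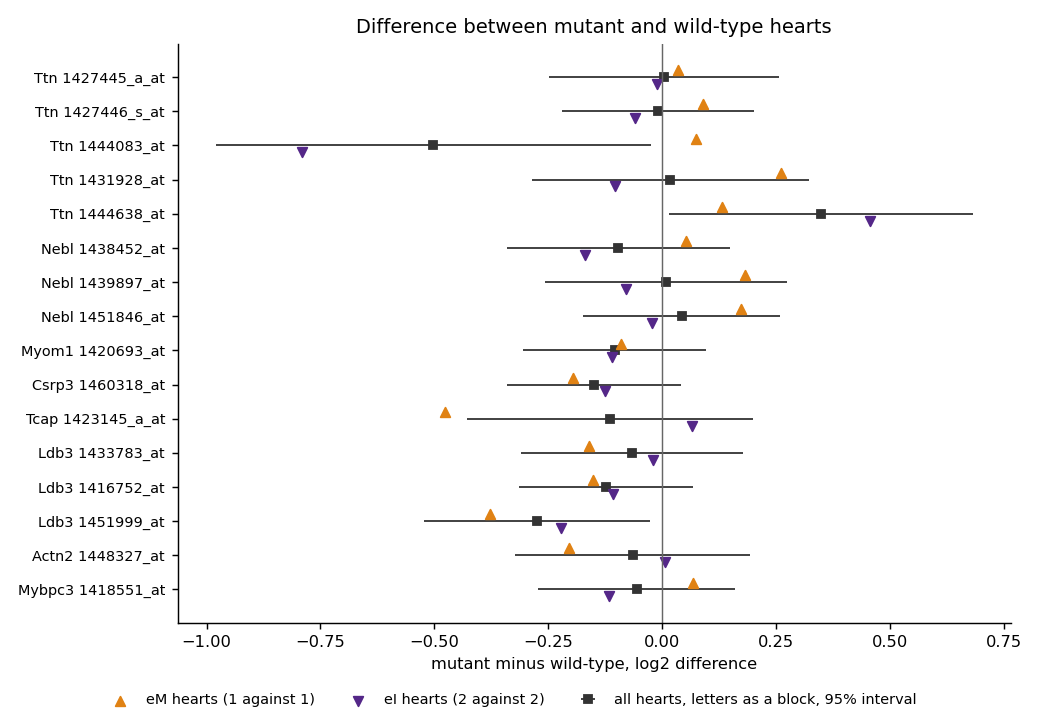
Log2 difference of mutant from wild-type hearts for the 16 tested probe sets, with squares and 95% intervals from the limma fit with the letters as a block, upward triangles for the pair of eM hearts and downward triangles for the eI hearts (2 against 2). Most intervals cover 0, those of Ttn 1444083_at, Ttn 1444638_at and Ldb3 1451999_at do not, and no probe set passed after adjustment over all 27022.

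Whether the mutant difference itself changed between eM and eI hearts was tested with an interaction term in limma, with 1 heart per genotype in eM. It called 0 of the 16 probe sets (adjusted p from 0.9092 to 0.9954) and 0% of all 27022, of which 1438 had an unadjusted p under 0.05. The largest members were Ttn 1444083_at, with 0.07 in eM and -0.79 in eI hearts, and Tcap, with -0.48 in eM and 0.07 in eI hearts.

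Other genes of the sarcomere were counted from lists that name no member. Of 30 tested genes of the Z-disc, 5 were higher and 4 lower in eM than in eI hearts at a limma adjusted p under 0.05, with a median difference of 0.01 log2. Over all 13572 tested genes 10.3% were called, 4.47% higher and 5.82% lower, with a median of -0.03. Myoz2, a calcineurin-binding Z-disc protein, read 8.77 and 9.75 in eM hearts, against 10.63 to 10.85 in eI hearts (2.75-fold lower, adjusted p = 0.0231). Ankrd1, a stress-responsive protein that binds titin's spring region, read 11.91 and 12.45, against 13.07 to 13.39 in eI hearts (2.04-fold lower, adjusted p = 0.016). Nrap, an actin-binding protein of myofibril assembly, was 0.71 log2 lower (adjusted p = 0.0228), and Mypn, a Z-disc partner of nebulette, 0.84 lower (adjusted p = 0.03). Actn3, the alpha-actinin of fast skeletal fibres, was 0.72 higher (7.17 and 7.47, against 6.41 to 6.76 in eI hearts, adjusted p = 0.022). The other called ones, Des, Palld, Synpo2 and Xirp1, were higher by 0.45 to 0.69. Genes called in this list thus went both ways, with the 2 largest differences being falls.

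Among 18 tested M-band and titin-associated genes, 0 were called higher and 2 lower, with a median of 0.01. They were Rbm20, the splicing factor that acts on titin transcripts, at 9.97 and 10.13 in eM hearts, against 10.33 to 10.61 in eI hearts (0.40 log2 lower, adjusted p = 0.0443), and Sqstm1, a selective autophagy receptor linked to the titin kinase (0.36 lower, adjusted p = 0.0404). The chaperone Unc45b and the kinase gene Alpk3 differed by 0.37 and 0.32 and did not pass. Of 16 thick and thin filament genes, 2 were higher and 0 lower, with a median of -0.05. Myh6, the alpha myosin heavy chain, averaged 13.80 in eM hearts, against 13.13 in eI hearts, without overlap (1.59-fold higher, adjusted p = 0.0168), and Tmod1, which caps thin filaments, was 0.41 higher (adjusted p = 0.0381). Of 12 transcription factors of heart muscle, 4 were higher and 0 lower, with a median of 0.27. Myocd, the coactivator of serum response factor, read 9.87 in both eM hearts, against 8.44 to 8.93 in eI hearts (2.19-fold higher, adjusted p = 0.0171). Gata4, Tbx5 and Tead1 were higher by 0.57, 0.50 and 0.43 log2.

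The number of calls changed with the heart that was left out. Over all genes the fit called 1397, but 0 without mutant 3, 2 without mutant 2, 158 without mutant 1 and 790 without wild-type 3. For the Z-disc list the counts were 0, 0, 1 and 6, and for the M-band list 0 in each case. The filament list gave 0 in each case, and the transcription factors 0, 0, 1 and 2. Without wild-type 1 or wild-type 2 the fit called 1937 and 1676 genes. Of these, 11 and 9 were in the Z-disc list, 4 and 3 in the M-band list, and 4 and 2 in each of the other lists. Between mutant and wild-type hearts limma called 0% of all 13572 genes and 0 genes of any of the 4 lists (every adjusted p = 0.9997). List medians were -0.03, -0.01, -0.02 and 0.01, beside 0.00 over all genes. The smallest unadjusted p belonged to Pdlim5, a Z-disc PDZ-LIM protein, which averaged 11.60 ± 0.09 in mutant and 11.86 ± 0.10 in wild-type hearts (SD, n = 3 each). Fhod3, a formin of sarcomere assembly, differed by -0.12, Csrp1 by 0.16 and Nkx2-5 by 0.17.

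**Figure D5:**
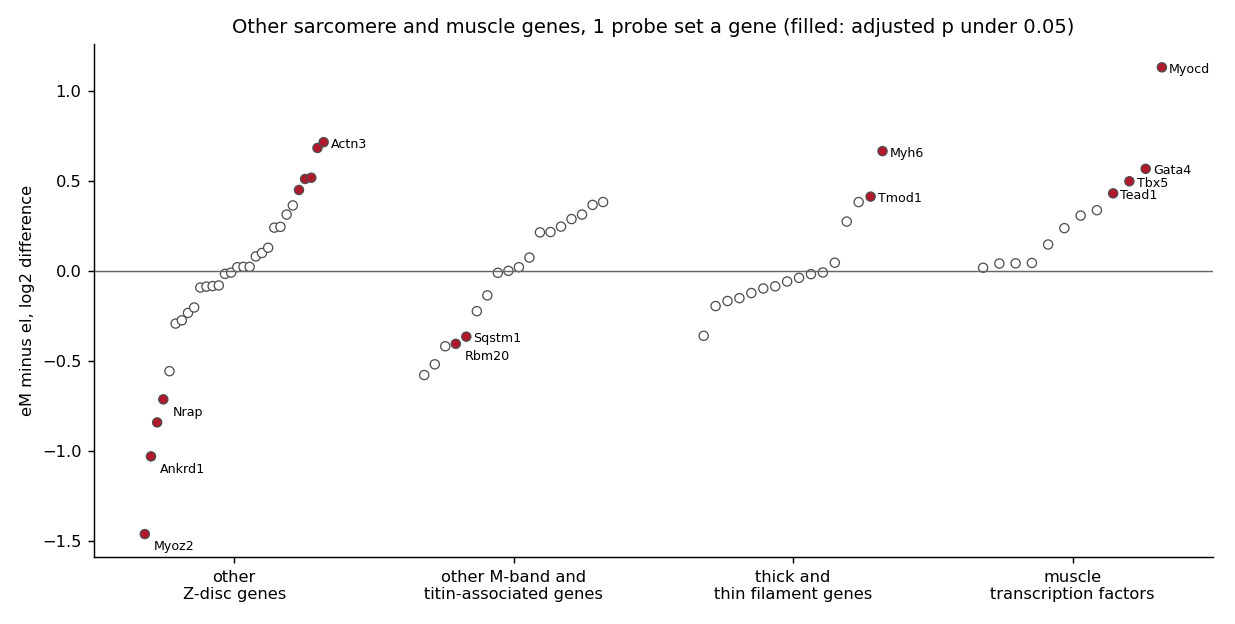
Log2 difference of eM from eI hearts for the tested genes of 4 lists, 1 probe set per gene, sorted within each list, with filled points for an adjusted p under 0.05 in limma. Filled points lie on both sides of 0 among Z-disc genes (5 above, 4 below), below 0 in the M-band list and above 0 in the filament and transcription factor lists.

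Summed intensities of markers of other cells moved with the letters beside these genes. The summed intensity of 7 cardiomyocyte markers was 16.80 in both eM hearts and 16.72 to 16.79 in eI hearts on the log2 scale. The sum of 8 fibroblast and matrix markers was 13.12 to 13.87 in eM and 14.10 to 14.50 in eI hearts, and that of 8 endothelial markers 12.50 to 12.64 in eM and 13.04 to 13.13 in eI hearts. That of 7 erythroid markers was 15.07 to 15.16 in eM and 15.43 to 16.04 in eI hearts, and that of 8 macrophage markers 9.96 to 10.36 in eM and 10.83 to 11.01 in eI hearts. Sums were 8.38 to 8.62 in eM and 9.60 to 12.43 in eI hearts for 7 liver and endoderm markers. They were higher in eM hearts for 7 smooth muscle markers (14.86 to 14.99 in eM, 14.30 to 14.53 in eI) and for 5 neural crest and neuronal markers (9.66 to 9.93 in eM, 9.03 to 9.42 in eI). Such sums follow their brightest genes, and single markers of some lists went the other way. Of the tested genes, 4 of 7 cardiomyocyte and 5 of 8 epicardial markers were higher in eM hearts. In the other lists, 5 of 7 smooth muscle and 3 of 5 neural crest and neuronal markers were higher in eM hearts. So were 2 of 8 endothelial and 1 of 8 fibroblast and matrix markers, and 0 of 7 erythroid, 0 of 6 macrophage and 0 of 6 liver and endoderm markers. Epicardial markers (8 genes, 12.49 to 12.50 in eM and 11.91 to 12.50 in eI) and skeletal muscle markers (12 genes, 10.80 to 11.04 in eM and 10.92 to 11.05 in eI) overlapped. Of the 12 skeletal markers, among them Actn3 of the Z-disc list, 5 passed the filter, of which 2 were called higher (Actn3 and Mylpf) and 1 lower (Tnni2) in eM hearts. The fast fibre genes Tnni2 and Mylpf averaged 10.11 and 8.85 over the 6 hearts, with differences of -0.59 and 0.71. The myogenic regulator Myod1 was tested but lay at the filter (5.38), and Myog, Myf5, Myf6, Pax7, Myh3, Myh8 and Neb lay under it. This skeletal sum was also 10.80 to 11.03 in mutant and 11.04 to 11.05 in wild-type hearts, without overlap by a narrow margin (11.027 against 11.039). Between genotypes limma called 0 of the 5 tested skeletal markers, and 0 had an unadjusted p under 0.05. In heart tissue measured in bulk, fewer cells of a type and less RNA per cell cannot be told apart, and the part of cell composition in the values of the members was not tested.

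Genes with the profile most like that of titin were sought among 13572 tested genes by the root mean square difference of log2 profiles, each centred on its mean over the 6 hearts. The nearest to the brightest Ttn probe set were Plac8 (0.16), Greb1 (0.17), Hsd11b2 (0.17), Dnah8 (0.19) and Ube3a (0.19). Their differences between eM and eI hearts were 1.42 to 1.64 log2. The mean centred profile of the 8 tested members was far flatter, between -0.10 in mutant 2 and 0.19 in wild-type 3, with Dtx2, Med25, Numb, Tbck and Cyb5r4 nearest to it (0.02 to 0.03).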

How the data were processed

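RNA of 6 mouse hearts was measured on Affymetrix Mouse430_2 arrays. The deposited values are log2 intensities that the authors made with RMA, per the submitters' processing notes; the sources used here give neither version nor settings. Signal over background is not known, and the number of arrays limits precision. Of 45101 probe sets, 64 controls were left out, as were those whose mean was in the lowest 40% (below 5.38), which left 27022. Genes were named from the supplied platform annotation (34945 probe sets named 1 gene, 932 several, 9160 none) and, for lists, represented by their brightest probe set (13572 tested). Groups and replicate numbers came from the sample titles, the letters from the descriptions.

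Fits used limma 3.58.1 in R 4.3.3 (lmFit, eBayes, two-sided, Benjamini-Hochberg over all features, threshold 0.05), without a block for genotype, with genotype as covariate for the letters, and with their interaction. The genotype and letters fits were tested on simulated data with 1 probe set per gene, while the interaction and the blocked fits were not. Alternatives were other filters, quantile normalization, median centring, trend and robust, the letters or replicate number as a block, eI hearts alone, no genotype term, the mean of a gene's probe sets, and leaving out each heart. Deviations of same-numbered hearts from their genotype means correlated at 0.18, 0.36 and 0.74 for numbers 1, 2 and 3. Hearts of unlike number were not compared and both hearts numbered 3 are eM, so these values cannot show pairing. The numbers, from the titles alone, were used as pairs only in the replicate block. Members and lists were chosen with earlier results of these data known. Named list genes are up to 4 of smallest p between letters and up to 2 between genotypes; Mypn, Des, Palld, Synpo2 and Xirp1 were added after their values were seen. Of the members, 7 had RefSeq promoter windows here. Plots used Python 3.11.15 with matplotlib 3.10.9.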

Additional observations from a re-analysis of the deposited data

Results flagged for a closer look

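At 4 tested probe sets both eI mutants lay on one side of both eI wild-type hearts while the eM mutant lay on the other side of the eM wild-type heart. The share of all tested probe sets with this pattern was not counted. Whether 4 is more than other genes would give is therefore not known, and the count is a description. The mutant difference in eM minus that in eI was 0.87 log2 for Ttn 1444083_at, 0.22 for Nebl 1438452_at, 0.18 for Mybpc3 and -0.54 for Tcap. None passed the interaction test in limma (adjusted p = 0.9092, 0.9547, 0.9586 and 0.9092), and each rests on a single pair of eM hearts.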

How the results depend on the processing

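No alternative called a member probe set between genotypes or in the interaction. Between genotypes, limma called 0 probe sets over all with the replicate block (943 with an unadjusted p under 0.05) and 0 with the letters as a block, and the block changed no call. Leaving out single hearts gave 0 to 2 probe sets and 0 to 2 genes over all, 2 without mutant 2, and 1 probe set without wild-type 3. Some genotype differences changed sign. Under quantile normalization they were -0.0052 for Ttn 1427445_a_at, -0.0033 for Ttn 1431928_at and -0.0015 for Nebl 1439897_at. In eI hearts alone these 3 were -0.011, -0.10 and -0.079, with -0.022 for Nebl 1451846_at, 0.066 for Tcap and 0.0055 for Actn2. Leaving out 1 heart, Ttn ranged from -0.55 to 0.54 (1427445_a_at), -0.63 to 0.56 (1427446_s_at), -1.68 to 0.39 (1444083_at), -0.52 to 0.43 (1431928_at) and -0.16 to 0.96 (1444638_at). Nebl ranged from -0.22 to 0.15 (1439897_at) and -0.27 to 0.29 (1451846_at), Tcap from -0.24 to 0.11 and Ldb3 1433783_at from -0.12 to 0.0045. With 1 heart left out the genotypes hold unequal shares of eM hearts, and these fits had no block for the letters. The interaction ranged from -0.060 to 0.15 for Ttn 1427445_a_at and from -0.034 to 0.075 for Myom1. It could not be fitted without an eM heart. Between the letters, leaving out 1 heart gave 1 to 4333 probe sets over all, 0 to 8 of members and 0 to 1937 genes, lowest without mutant 3, with 815 probe sets without mutant 2, 1208 without mutant 1 and 1263 without wild-type 3. Without a filter 878 genes were called. Titin's differences between the letters kept their sign at the 5 tested probe sets under each alternative run, except that 1444638_at was not tested with the lowest 60% left out, where 5 member probe sets were called. The causes of these changes were not tested, and signal over background, which limits the dim probe sets, is not known.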

Other observations

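A shared order of the eI hearts was noticed after the values were seen. Mybpc3, Myom1 and Nebl 1438452_at all ran from wild-type 1, the highest, through wild-type 2 and mutant 2 to mutant 1, the lowest, and Tcap ran in exactly the reverse order. The 4 values were 13.37, 13.25, 13.21 and 13.17 for Mybpc3, and 10.67, 10.74, 10.75 and 10.79 for Tcap. Of all 27022 tested probe sets, 5.27% had the one order and 7.34% its reverse, against 3 and 1 of the 16 members' probe sets. The order was picked from these members' own values, so their counts are a description and not a test.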
